A study of Mus musculus with 4 samples.

Results

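The nuclear genes of mitochondrial complex I were read in RNA-Seq of purified HSCs that had kept or lost *Id2*. They were taken as every gene of the expression matrix whose symbol begins with *Nduf*, without the pseudogene marked -ps, which gave 45 of 19354 genes, 37 subunits and 8 assembly factors (symbols beginning with *Ndufaf*). Most had a slightly higher mean after loss of *Id2*, 35 of 37 subunits (median log2 fold change 0.15) and 7 of 8 assembly factors (median 0.11), but no member passed the test for a difference between the genotypes. The excess of the subunits lay largely in 1 of the 2 *Id2*Δ/Δ libraries, and abundant coding genes with short transcripts, taken as a whole, also had a median log2 fold change of 0.15. *Ndufaf5* had the largest difference of all members, a log2 fold change of 0.64 ± 0.31 (SE). This value rested on few reads, 82 and 108 for *Id2*+/+ against 148 and 203 for the more deeply sequenced *Id2*Δ/Δ. Raw reads therefore overstate the difference.

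The libraries, labelled WT and ID2KO by the submitters, came from LSK FLT3- CD48- CD150+ bone marrow cells of mice aged 8 to 16 weeks. WT cells were pooled from 14 *Mx1-Cre* *Id2*+/+ mice and ID2KO cells (*Id2*Δ/Δ) from 15 *Mx1-Cre* *Id2*fl/fl mice. Both genotypes carried *Mx1-Cre*, a recombinase under an interferon-responsive promoter that is active in more tissues than blood, and both had received pIpC, which turns it on, 2 weeks earlier. The work was done over 2 experiments and gave 2 libraries per genotype, here replicates 1 and 2. The labels do not tie a library to an experiment or to particular mice, so that the spread between libraries may be partly technical. Depths recovered from the values were 14200000 to 18800000 reads. *Id2* had 93 and 98 reads in WT and 0 reads in both ID2KO libraries, at least 37.3-fold lower against a floor of 3 reads per library. All 9 HSC markers were measured. Summed, they stood at 4465 and 4382 CPM in WT and 3042 and 3600 CPM in ID2KO. CPM are reads of a gene scaled to a common library size. *Kit* was the highest of them in each library, with 11.08 and 10.93 log2 CPM in WT and 10.19 and 10.55 in ID2KO. The markers did not move together. In ID2KO 6 had a lower mean and 3 a higher one, *Ly6a*, *Slamf1* and *Hoxb5*. The part of the HSC markers in the results below was not tested.

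Complex I is the entry point of the respiratory chain. It takes electrons from NADH, hands them to ubiquinone and uses the energy to pump protons across the inner mitochondrial membrane, and it is an important source of reactive oxygen species. A peripheral arm holds the NADH-oxidizing N module and the ubiquinone-reducing Q module, a membrane arm holds the pumps, and core subunits conserved from bacteria are surrounded by accessory subunits. Quiescent HSCs are known for relying little on the respiratory chain, which is why its genes were of interest in cells studied for loss of quiescence. Assembly factors help to build the complex and are not part of the finished enzyme.

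NRF1 is a well-known activator of respiratory chain genes, and the members whose promoter window held the letters of its core site are shown to put the sequences beside the values. Promoter windows, from 250 bases before to 50 bases after the start, were those of RefSeq on GRCm38.p6, and 33 of 37 subunits and 7 of 8 assembly factors had one. Those without one included *Ndufa2*, *Ndufb9*, *Ndufs1* and *Ndufaf6*. The letters GCATGCGC or their reverse complement GCGCATGC, which can overlap each other, stood in the windows of 3 subunits (9.09%) and 2 assembly factors (28.6%), against 3.05% of all 27025 genes with a window. These 27025 genes were not limited to expressed or coding genes, unlike the members, and enrichment was not tested. The lines give the 250 bases before the start, with the matched letters in capitals. For *Ndufaf5*, whose match lies after the start, the line gives 30 bases around it. The positions follow. The printed bases lie at chr17:56717512-56717761 on the plus strand for *Ndufa11*, chr15:82354292-82354541 on the minus strand for *Ndufa6*, chr2:36049339-36049588 on the minus strand for *Ndufa8*, chr4:24897833-24898082 on the plus strand for *Ndufaf4* and chr2:140170651-140170680 on the plus strand for *Ndufaf5*, all written 5′ to 3′ on the gene's strand.
Ndufa11: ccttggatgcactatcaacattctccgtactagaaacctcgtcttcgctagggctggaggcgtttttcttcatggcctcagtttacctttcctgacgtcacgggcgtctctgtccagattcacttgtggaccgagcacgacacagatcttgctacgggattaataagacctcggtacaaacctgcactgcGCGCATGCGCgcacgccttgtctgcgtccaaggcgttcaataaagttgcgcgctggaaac
Ndufa6: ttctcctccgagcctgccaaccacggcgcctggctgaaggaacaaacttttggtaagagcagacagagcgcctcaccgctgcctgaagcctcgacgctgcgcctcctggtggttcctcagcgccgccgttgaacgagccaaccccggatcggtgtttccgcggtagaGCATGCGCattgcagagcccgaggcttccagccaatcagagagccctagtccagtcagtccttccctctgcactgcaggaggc
Ndufa8: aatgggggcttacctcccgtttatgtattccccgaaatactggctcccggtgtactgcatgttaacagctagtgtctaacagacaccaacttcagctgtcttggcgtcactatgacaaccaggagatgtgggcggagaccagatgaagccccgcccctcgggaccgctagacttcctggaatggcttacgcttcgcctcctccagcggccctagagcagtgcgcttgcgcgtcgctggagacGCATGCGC
Ndufaf4: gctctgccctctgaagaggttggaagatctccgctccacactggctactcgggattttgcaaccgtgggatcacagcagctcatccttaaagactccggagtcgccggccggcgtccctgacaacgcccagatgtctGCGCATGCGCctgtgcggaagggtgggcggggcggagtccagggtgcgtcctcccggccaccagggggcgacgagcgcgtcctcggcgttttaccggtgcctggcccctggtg
Ndufaf5: tagtcccgttgGCGCATGCGCctaatagaa
Among these genes the log2 fold change was 0.24 for *Ndufa11*, 0.21 for *Ndufa6*, 0.18 for *Ndufa8*, 0.64 for *Ndufaf5* and 0.01 for *Ndufaf4*. The pair of assembly factors with the letters thus held the highest and one of the lowest values of their group. The 30 subunits with a window but without the letters had a median log2 fold change of 0.13.

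Other motifs were searched on both strands in the same windows. The shares of all windows again count all 27025 genes with a window, expressed or not. The ETS letters CCGGAAG were in 12.1% of subunit windows, 28.6% of assembly factor windows and 9.93% of all windows. The YY1 letters AAGATGG were in 21.2% and 14.3%, against 7.28% of all windows, and the HIF letters ACGTG in 18.2% and 14.3%, against 21.8%. The matches lay in few genes. For ETS, YY1 and HIF they were in 4, 7 and 6 of 33 subunits and in 2, 1 and 1 of 7 assembly factors. Median log2 fold changes of subunits with and without a match were 0.11 and 0.17 for ETS and 0.21 and 0.14 for YY1. For HIF they were 0.09 and 0.19. Whether these medians differed was not tested.

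All 45 members passed the filter of a mean of at least 1 CPM, so none was dropped from the counts. With limma and Benjamini-Hochberg adjustment over 15895 genes, 0% of all genes and no member had an adjusted p-value under 0.05, the lowest being 0.910. Without adjustment 742 genes lay under 0.05, of which 1 was a member, *Ndufb9*. It belonged to the 1.72% of tested genes that were higher in *Id2*Δ/Δ HSCs at that unadjusted threshold. For 44 of 45 members the 95% interval of the log2 fold change included 0, and the median standard error was 0.16. The intervals reached from -0.54 to 1.37, so differences of the size seen here could not be resolved with 2 libraries per genotype. In bulk RNA, more cells of one kind and more RNA per cell cannot be told apart.

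**Figure D1:**
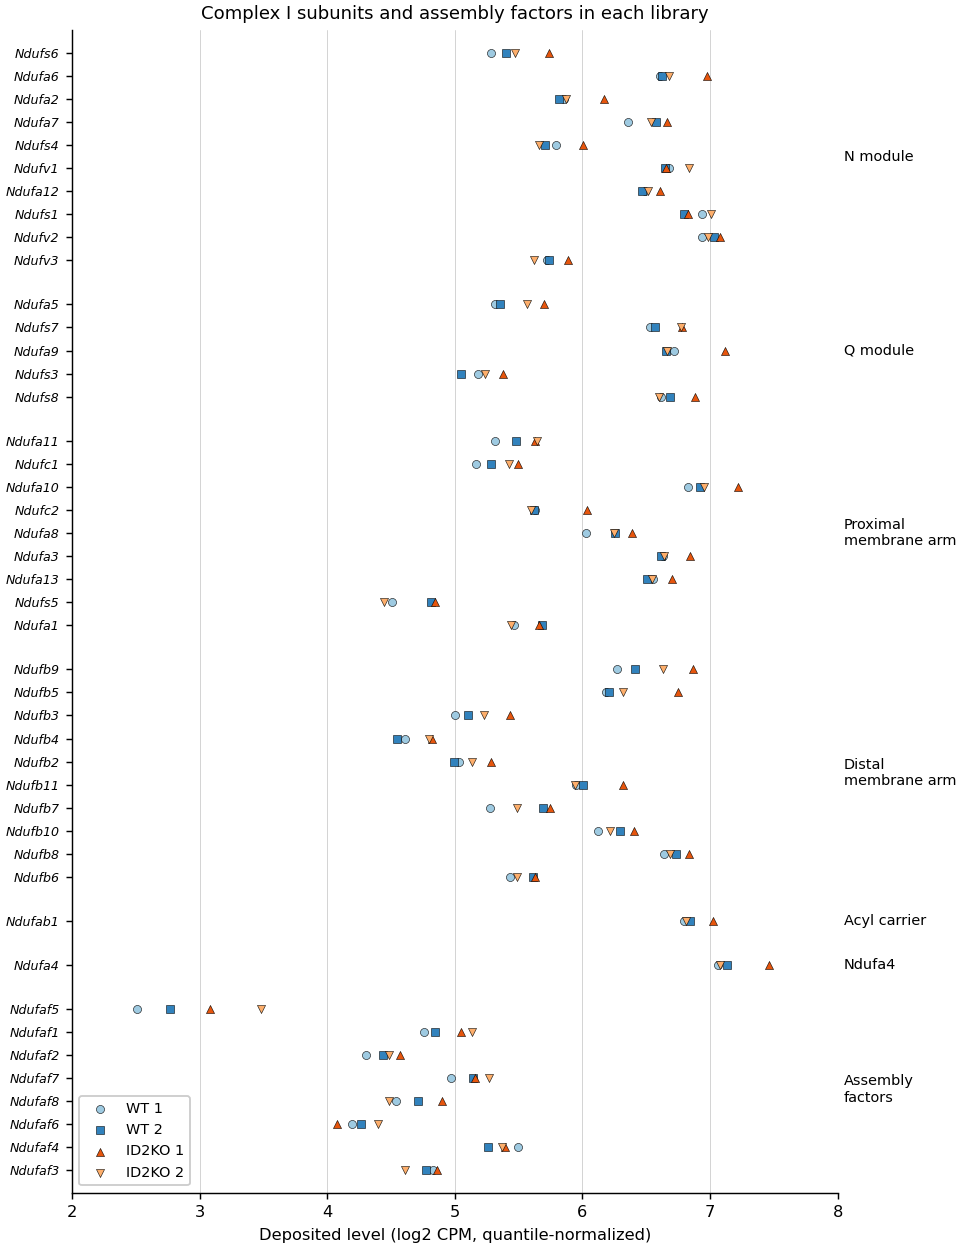
Deposited levels (log2 CPM, quantile-normalized) of 36 subunits and the 8 assembly factors on the horizontal axis, one row per gene and one point per library, grouped by position in the complex. The upward triangle of ID2KO replicate 1 is the rightmost point for 32 of the 36 subunits drawn but for 3 of 8 assembly factors.

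Most subunits lay in one direction, with 35 of 37 means higher in *Id2*Δ/Δ HSCs, while 51.7% of all genes tested were higher. The share was 87.6% for coding genes of at least 16 CPM with a transcript under 1000 bases, and 70.8% for those of 1000 to 2000 bases. Both *Id2*Δ/Δ libraries exceeded both *Id2*+/+ libraries for 16 of 37 subunits, against 19% of all genes, and lay below both for 0, against 15.8% of all genes. Of coding genes of at least 16 CPM with a transcript under 1000 bases, 44.1% lay above in this way, and 9 of 469 lay below. This stood beside 43.2% of the subunits above. Among the 16 subunits of 1000 bases or more 37.5% lay above, beside 28.9% of such coding genes of 1000 to 2000 bases. Summed over the 37 subunits, the level was 2677 and 2788 CPM in *Id2*+/+ replicates 1 and 2, and 3241 and 2825 CPM in *Id2*Δ/Δ replicates 1 and 2. Relative to the *Id2*+/+ mean this was 119% in *Id2*Δ/Δ replicate 1 and 103% in replicate 2, where the *Id2*+/+ libraries were at 98.0% and 102%. The second *Id2*Δ/Δ library was therefore nearly level with the controls in the sum.

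The 3 subunits with the largest differences were *Ndufb9*, *Ndufb5* and *Ndufa5*. *Ndufb9*, an accessory subunit of the distal membrane arm, had 6.27 and 6.41 log2 CPM in *Id2*+/+ and 6.87 and 6.63 log2 CPM in *Id2*Δ/Δ HSCs. Its genotypes did not overlap, with a log2 fold change of 0.41 ± 0.14 (SE, n = 2 per genotype; limma, adjusted p = 0.910). In the reference annotation its exons overlap those of another gene on the same strand, and how the submitters assigned shared reads is not given in the sources used here. *Ndufb5*, also of the distal membrane arm, had 6.18 and 6.21 log2 CPM in *Id2*+/+ and 6.75 and 6.32 log2 CPM in *Id2*Δ/Δ HSCs, which is a log2 fold change of 0.34 ± 0.17 (SE). Its value rested mainly on *Id2*Δ/Δ replicate 1, without which it was 0.12. *Ndufa5*, an accessory subunit of the Q module, had 5.31 and 5.36 log2 CPM in *Id2*+/+ and 5.70 and 5.57 log2 CPM in *Id2*Δ/Δ HSCs, which is a log2 fold change of 0.30 ± 0.16 (SE), and both *Id2*Δ/Δ libraries were above the controls.

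The lowest differences among the subunits were those of *Ndufa1* and *Ndufs5*. *Ndufa1* and *Ndufs5*, small accessory subunits of the membrane arm, had log2 fold changes of -0.02 ± 0.17 (SE) and -0.02 ± 0.22 (SE). *Ndufs5* had 4.51 and 4.81 log2 CPM in *Id2*+/+ and 4.84 and 4.44 log2 CPM in *Id2*Δ/Δ HSCs, so that the libraries of one genotype lay further apart than the genotypes.

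The 7 core subunits of nuclear origin carry the flavin and the iron-sulfur clusters or line the ubiquinone site. All 7 had a higher mean in *Id2*Δ/Δ HSCs. Their median log2 fold change was 0.08, and the 29 accessory subunits had a median of 0.18, with 27 higher. Without *Id2*Δ/Δ replicate 1 this order turned, with 0.12 for the core subunits (4 of 7 higher) and 0.03 for the accessory subunits (20 of 29 higher). Core transcripts were also longer, with a median of 1623 bases against 763 bases. After the length correction described below, the core and accessory medians were 0.07 and 0.10. With that correction fitted within coding genes of at least 16 CPM they were 0.01 and 0.04. *Ndufs7*, which holds the last iron-sulfur cluster before ubiquinone, had 6.53 and 6.57 log2 CPM in *Id2*+/+ and 6.78 and 6.77 log2 CPM in *Id2*Δ/Δ HSCs. It was the core subunit with the largest difference, 0.23 ± 0.12 (SE) on the log2 scale, with close replicates on both sides. *Ndufs3*, a structural subunit of the Q module, had 5.18 and 5.05 log2 CPM in *Id2*+/+ and 5.37 and 5.24 log2 CPM in *Id2*Δ/Δ HSCs, a difference of 0.19 ± 0.17 (SE). These were the core subunits whose genotypes did not overlap.

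The other core subunits overlapped between genotypes. *Ndufv1*, which binds NADH and the flavin, had 6.68 and 6.65 log2 CPM in *Id2*+/+ and 6.65 and 6.84 log2 CPM in *Id2*Δ/Δ HSCs, and *Ndufs1*, which carries iron-sulfur clusters of the N module, had 6.93 and 6.80 against 6.83 and 7.01 log2 CPM. Both were highest in *Id2*Δ/Δ replicate 2, unlike most subunits. *Ndufv2*, the partner of *Ndufv1*, and *Ndufs8*, an iron-sulfur subunit of the Q module, had log2 fold changes of 0.04 ± 0.12 (SE) and 0.09 ± 0.14 (SE). Their highest library was *Id2*Δ/Δ replicate 1, while *Id2*Δ/Δ replicate 2 did not exceed both controls.

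By position in the complex, the median log2 fold change was 0.09 for the 10 genes of the N module, 0.20 for the 6 genes of the Q module, 0.18 for the 9 genes of the proximal membrane arm and 0.18 for the 10 genes of the distal membrane arm. Means were higher in *Id2*Δ/Δ HSCs for all genes of the N module, the Q module and the distal arm, and for 7 of 9 genes of the proximal arm. Each median rested on *Id2*Δ/Δ replicate 1, without which they were 0.05, 0.05 (3 of 6 higher), 0.02 and 0.06. Whether the modules differed from each other was not tested. *Ndufab1*, the mitochondrial acyl carrier protein, which also serves fatty acid synthesis, had a log2 fold change of 0.10 ± 0.13 (SE) and overlapping genotypes.

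*Ndufa4* was kept because of its symbol, although the protein is now counted with complex IV. It had 7.06 and 7.13 log2 CPM in *Id2*+/+ and 7.46 and 7.08 log2 CPM in *Id2*Δ/Δ HSCs, and without it the subunit median was 0.14. Per transcript length it had the highest mean level of all members, 239 CPM per kilobase, followed by *Ndufa3* at 199.5 CPM per kilobase and *Ndufa6* at 179.85 CPM per kilobase. Both are accessory subunits, of the proximal membrane arm and of the N module. The order depends on the transcript length taken. The lengths used for *Ndufa4*, *Ndufa3* and *Ndufa6* were 610, 515 and 590 bases, while their longest transcripts have 1232, 782 and 1141 bases. *Ndufa3* had 6.63 and 6.61 log2 CPM in *Id2*+/+ and 6.84 and 6.64 log2 CPM in *Id2*Δ/Δ HSCs. *Ndufa6* had 6.61 and 6.63 log2 CPM in *Id2*+/+ and 6.98 and 6.67 log2 CPM in *Id2*Δ/Δ HSCs. In all 3 genes *Id2*Δ/Δ replicate 1 was high and replicate 2 lay close to the controls. *Ndufa4l2*, the hypoxia-responsive paralog of *Ndufa4*, had no row in the matrix.

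**Figure D2:**
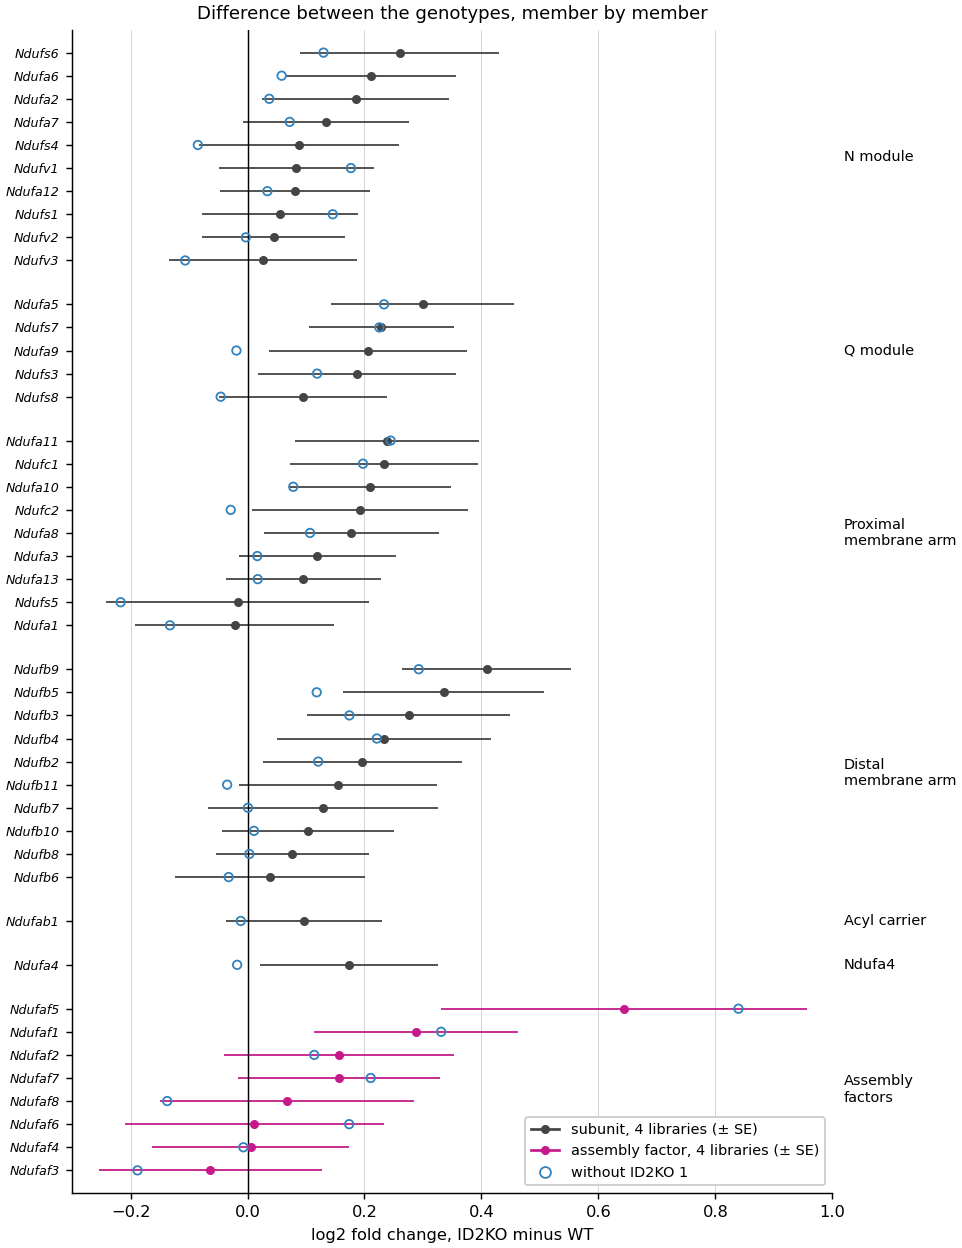
The log2 fold change of 44 members, *Id2*Δ/Δ minus *Id2*+/+, on the horizontal axis with its standard error from limma (bars, 2 libraries per genotype), and the value left when ID2KO replicate 1 is taken out (open circles). Filled points lie right of 0 for 41 of the 44 members drawn, and most open circles of the subunits lie nearer to 0.

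The 8 assembly factors had log2 fold changes from -0.06 to 0.64, and the highest without *Ndufaf5* was 0.29. *Ndufaf5*, which hydroxylates an arginine of NDUFS7 early in assembly, had 2.51 and 2.77 log2 CPM in *Id2*+/+ and 3.08 and 3.48 log2 CPM in *Id2*Δ/Δ HSCs. The genotypes did not overlap and the log2 fold change was 0.64 ± 0.31 (SE; limma, adjusted p = 0.910). It was the least abundant member, and counting error alone was 11.04% and 9.62% (SD) of its reads in *Id2*+/+ and 8.22% and 7.02% in *Id2*Δ/Δ libraries. Leaving out each library in turn gave 0.45 to 0.84, and a pseudocount of 5 CPM gave 0.39. *Ndufaf8*, which stabilizes the *Ndufaf5* product, had 4.54 and 4.71 log2 CPM in *Id2*+/+ and 4.90 and 4.49 log2 CPM in *Id2*Δ/Δ HSCs, so that its *Id2*Δ/Δ libraries lay on either side of the controls.

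*Ndufaf1*, a scaffold for building the membrane arm, had 4.76 and 4.85 log2 CPM in *Id2*+/+ and 5.05 and 5.13 log2 CPM in *Id2*Δ/Δ HSCs. The replicates were close and the log2 fold change was 0.29 ± 0.17 (SE). *Ndufaf7*, an arginine methyltransferase needed early in assembly, had 4.97 and 5.14 log2 CPM in *Id2*+/+ and 5.16 and 5.26 log2 CPM in *Id2*Δ/Δ HSCs, which is a log2 fold change of 0.16 ± 0.17 (SE). *Ndufaf1*, *Ndufaf5* and *Ndufaf7* were each higher in *Id2*Δ/Δ replicate 2 than in replicate 1.

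*Ndufaf2* is a paralog of the N-module subunit *Ndufa12* and is replaced by it late in assembly. *Ndufaf2* had 4.31 and 4.44 log2 CPM in *Id2*+/+ and 4.57 and 4.49 log2 CPM in *Id2*Δ/Δ HSCs, and *Ndufa12* had 6.49 and 6.47 against 6.61 and 6.51 log2 CPM. Neither gene's genotypes overlapped, and the log2 fold changes of 0.16 ± 0.20 (SE) and 0.08 ± 0.13 (SE) were below their standard errors.

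For the other assembly factors the genotypes overlapped. *Ndufaf3* and *Ndufaf4*, which act together on the early Q module, had log2 fold changes of -0.06 ± 0.19 (SE) and 0.01 ± 0.17 (SE). *Ndufaf6*, needed for early steps of the membrane arm, had 4.19 and 4.26 log2 CPM in *Id2*+/+ and 4.08 and 4.40 log2 CPM in *Id2*Δ/Δ HSCs, which is a log2 fold change of 0.01 ± 0.22 (SE). It was the one member with its lowest value in *Id2*Δ/Δ replicate 1 and its highest in replicate 2.

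Subunits and the 8 *Ndufaf* assembly factors differed in how the *Id2*Δ/Δ libraries lay to each other. *Id2*Δ/Δ replicate 1 was the highest of the 4 libraries for 33 of 37 subunits and 3 of 8 assembly factors, while this held for 33.2% of all genes. Among coding genes of at least 16 CPM it held for 74.0% with transcripts under 1000 bases and 49.7% with transcripts of 1000 to 2000 bases. The median subunit was 0.16 above its mean over the 4 libraries in *Id2*Δ/Δ replicate 1, with -0.04 in replicate 2, and -0.10 and -0.06 in the *Id2*+/+ libraries. For the 8 *Ndufaf* genes both *Id2*Δ/Δ libraries were above, by 0.10 and 0.08, and the *Id2*+/+ libraries stood at -0.13 and -0.01. The 13 assembly factors with other symbols, described below, were unlike them, with 0.22 in *Id2*Δ/Δ replicate 1 and -0.09 in replicate 2. Of these, 7 were highest in *Id2*Δ/Δ replicate 1. The median of the subunits minus that of the 8 *Ndufaf* genes was 0.03 and -0.05 in *Id2*+/+ and 0.07 and -0.12 in *Id2*Δ/Δ libraries, and these values overlapped between genotypes.

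Without *Id2*Δ/Δ replicate 1 the subunit median was 0.03, with 24 of 37 higher, and the assembly factor median was 0.14, with 5 of 8 higher. Replicate numbers 1 of both genotypes alone gave 0.28 for the subunits, and replicate numbers 2 alone gave 0.03. In *Id2*Δ/Δ replicate 2, 18 of 37 subunits were above both controls, 11 between them and 8 below both. *Id2*Δ/Δ replicate 1 was above both controls for 34 of 37.

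**Figure D3:**
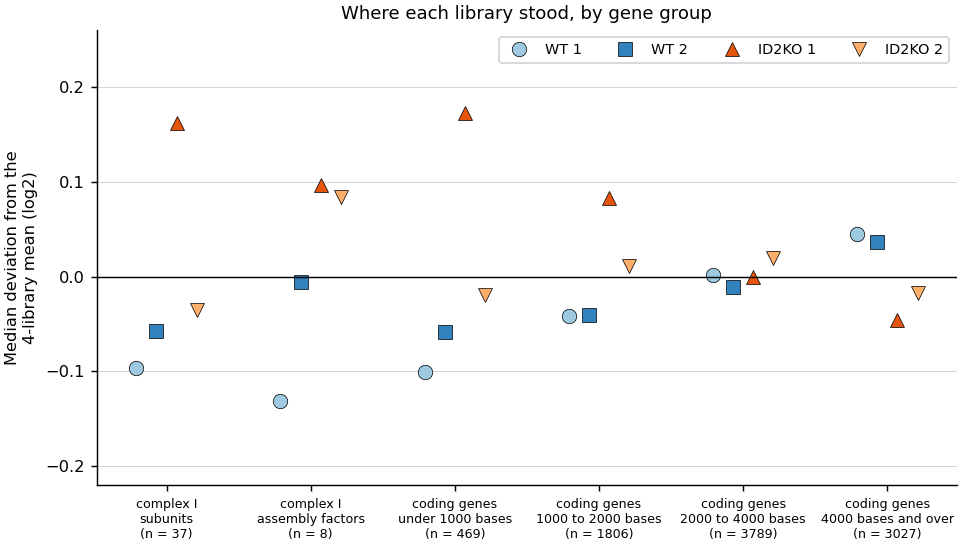
Median deviation of each library from the mean of the 4 libraries (log2, vertical axis) for the subunits, the assembly factors and coding genes of at least 16 CPM in 4 classes of transcript length. The subunits and the coding genes under 1000 bases show nearly the same 4 values, from -0.10 in WT replicate 1 to 0.16 and 0.17 in ID2KO replicate 1.

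Subunit transcripts are short, with a median of 908 bases against 2634 bases for all tested genes, and assembly factor transcripts have a median of 1308.5 bases. Across all tested genes with a length, the genotype difference declined with transcript length (Spearman's rho = -0.22 over 15855 genes that share the same 4 libraries, a description). Among coding genes of at least 16 CPM, the median log2 fold change was 0.15 for the 469 with a transcript under 1000 bases, 0.09 for those of 1000 to 2000 bases, 0.01 for those of 2000 to 4000 bases and -0.08 for longer ones. The 21 subunits under 1000 bases had a median of 0.18, and the 16 longer ones a median of 0.10.

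The short coding genes had a library pattern like that of the subunits. Of these 469 genes, 411 had a higher mean in *Id2*Δ/Δ HSCs. Their highest value was in *Id2*Δ/Δ replicate 1 for 74.0%, beside 89.2% of the subunits. The 16 longer subunits, of 1005 to 4371 bases, were less like their length class. All 16 had a higher mean and 87.5% were highest in *Id2*Δ/Δ replicate 1. For coding genes of 1000 to 2000 bases these shares were 70.8% and 49.7%. When a spline of log2 transcript length over all tested genes was taken off each library, the subunit median was 0.08 with 32 of 37 higher, and the assembly factor median 0.06 with 5 of 8 higher. Fitted within the 9091 coding genes of at least 16 CPM, the same correction left a subunit median of 0.03, with 23 of 37 higher, and a median of 0.01 over the 7 assembly factors at that level, with 4 higher. Within the subunits alone length and difference were weakly related (Spearman's rho = -0.14 over 37 genes, a description). What sets the relation with length was not tested.

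**Figure D4:**
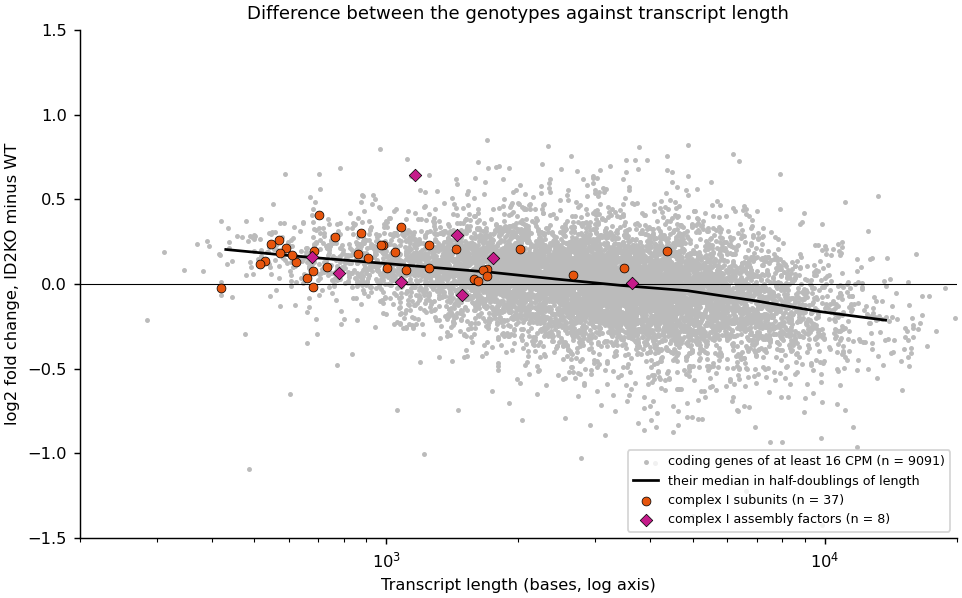
The log2 fold change, *Id2*Δ/Δ minus *Id2*+/+ (vertical axis), against transcript length in bases (log axis) for 9091 coding genes of at least 16 CPM (grey, 9 outside the axes), their running median by length (line), the 37 subunits (circles) and the 8 assembly factors (diamonds). The subunits scatter around the line at the short end, and *Ndufaf5* at 0.64 lies far above it.

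The complex I subunits encoded by mitochondrial DNA were read from the same libraries. Of 7, 6 passed the filter and all 6 had a higher mean in *Id2*Δ/Δ HSCs. Their median log2 fold change was 0.17. This rested on *Id2*+/+ replicate 1, which was low for these genes (median deviation -0.25), and without it the median was 0.03 with 3 of 6 higher. *mt-Nd6*, the subunit on the opposite strand from the others, had 8.01 and 8.13 log2 CPM in *Id2*+/+ and 8.52 and 8.38 log2 CPM in *Id2*Δ/Δ HSCs, which is a log2 fold change of 0.38 ± 0.11 (SE; limma, unadjusted p = 0.0104, adjusted p = 0.910). It was chosen after its values were seen. The lowest was *mt-Nd5*, at 0.01 ± 0.10 (SE), and the highest *mt-Nd3*, at 0.50 ± 0.69 (SE) with values near 1 CPM. After quantile normalization *mt-Nd1* had the same 10.69 log2 CPM in 3 libraries. Small differences are therefore not resolved for it, and may not be for other abundant mitochondrial transcripts.

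Further assembly factors carry other symbols. Of 14 listed, 13 had a row, 8 had a higher mean in *Id2*Δ/Δ HSCs and the median log2 fold change was 0.05. The direction turned without *Id2*Δ/Δ replicate 1 (median -0.05, 3 of 13 higher) and without *Id2*+/+ replicate 2 (median -0.02, 6 of 13 higher). *Tmem186*, a partner of *Ndufaf1* in membrane arm assembly, was the highest at 0.23 ± 0.21 (SE), with 6.16 log2 CPM in *Id2*Δ/Δ replicate 1 and 5.58 to 5.65 log2 CPM in the other libraries. *Nubpl*, which delivers iron-sulfur clusters to complex I, was the lowest at -0.54 ± 0.28 (SE), with 3.79 and 3.90 log2 CPM in *Id2*+/+ and 3.05 and 3.57 log2 CPM in *Id2*Δ/Δ HSCs. Neither passed the test (limma, adjusted p = 0.910).

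Of 10 regulators of respiratory gene transcription, 3 had a higher mean in *Id2*Δ/Δ HSCs and the median log2 fold change was -0.09, with 0 past the threshold. The median was -0.16 when *Id2*Δ/Δ replicate 2 was left out, and stayed below 0 without any other library. Their transcripts were long (median 3961 bases), and the length correction over all tested genes left a median of -0.04 with 5 of 10 higher. Fitted within coding genes of at least 16 CPM, it left -0.0014 over 9 regulators, with 4 higher. *Tfam*, which packages and transcribes mitochondrial DNA, was the highest at 0.33 ± 0.15 (SE), and *Ppargc1a*, a coactivator of mitochondrial biogenesis, the lowest at -0.67 ± 0.33 (SE). *Ppargc1a* had 2.80 and 2.82 log2 CPM in *Id2*+/+ and 2.17 and 2.11 log2 CPM in *Id2*Δ/Δ HSCs, and *Tfam* 5.97 and 5.98 against 6.42 and 6.19 log2 CPM.

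The other respiratory complexes showed medians of like size. These were 0.12 for the 4 subunits of complex II, 0.11 for 10 genes of complex III and cytochrome c, 0.22 for 13 nuclear genes of complex IV and 0.22 for 15 nuclear genes of ATP synthase. Leaving out each library in turn gave 0.01 to 0.27, 0.07 to 0.19, 0.11 to 0.38 and 0.11 to 0.31, and without *Id2*Δ/Δ replicate 1 they were 0.01, 0.11, 0.11 and 0.11, beside 0.03 for the complex I subunits. The transcripts of complex IV and ATP synthase were also short, with medians of 659 and 838 bases. With the length correction fitted within coding genes of at least 16 CPM, the 4 medians were 0.07, 0.03, 0.07 (over 12 genes) and 0.08. That of the complex I subunits was 0.03. No gene of these groups passed the test.

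Markers of other blood cells were summed in each library. The 10 neutrophil markers summed to 282.5 and 170.5 CPM in *Id2*+/+ and 262 and 142 CPM in *Id2*Δ/Δ libraries, so that replicate 1 was higher in each genotype. *Prtn3* was the highest marker in each library, and the markers did not move together. Of the 9 that were tested 3 had a higher mean in *Id2*Δ/Δ HSCs, up to 1.25 on the log2 scale for *Elane*, and 6 a lower one, down to -2.00 for *Camp*, while *Ctsg*, under the filter, had 1 and 4 reads in *Id2*+/+ and 23 and 26 reads in *Id2*Δ/Δ libraries. The 5 megakaryocyte markers summed to 339 and 323 CPM in *Id2*+/+ and 398 and 410.0 CPM in *Id2*Δ/Δ libraries. The 7 erythroid markers with a row summed to between 29.1 and 42.5 CPM. *Hbb-bt* was even across libraries (4.11 to 4.30 log2 CPM), but other globins were not. *Hba-a1* had 31 and 5 reads in *Id2*+/+ and 0 and 32 in *Id2*Δ/Δ libraries, and *Hbb-bs* 54 and 18 against 6 and 70. The 2 markers excluded by the sort, *Flt3* and *Cd48*, summed to between 48.3 and 57.7 CPM. The sums were 33.6 to 50.98 CPM for the 2 B-cell markers with a row and 1.37 to 3.40 CPM for the T-cell marker *Cd4*. *Cd79a*, *Ebf1*, *Pax5* and the other T-cell markers had no row. The part of these cells in the members' values was not tested.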

How the data were processed

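RNA-Seq of HSCs was analysed in 4 libraries, 2 per genotype. The authors deposited log2 CPM values, which the columns themselves show to be quantile-normalized. The submitters' processing notes name CASAVA 1.8.4, Trimmomatic 0.30, TopHat2 2.0.8, RSEM and STAR with the builds mm9 and NCBIM37, without their roles. Quantile normalization gives all libraries one distribution, so a difference is relative to the other genes of a library. Strand use and the treatment of shared reads are not given in the sources used here, and the exons of 18 of 45 members overlap those of another gene.

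No pseudocount was added. The 15895 genes whose mean reached 1 CPM entered the test, limma 3.58.1 under R 4.3.3 (lmFit, and eBayes with an intensity trend, two-sided), with Benjamini-Hochberg adjustment and a threshold of 0.05. The exact permutation test of 2 against 2 libraries cannot go below 0.333 and was not used. Reads below 32 CPM and the depths were recovered from the order of distinct values, and intervals or floors from them cover counting error only. Transcript length is that of the longest principal transcript in GENCODE M21, matched by identifier for 45 of 45 members, of which 31 had the same version number. The fit was tested on simulated data.

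Named were all *Ndufaf* genes, the 7 core subunits, *Ndufa12*, *Ndufa4*, *Ndufa4l2*, the 3 highest and 3 lowest subunits by log2 fold change, the 3 highest per length, members with an unadjusted p-value under 0.05, and the highest and lowest of each other list of complex I genes. The members and lists were chosen with earlier results of these data known, and the length classes and 2 of the length corrections after seeing the data. Alternatives changed the pseudocount (1 or 5), the scaling, the filter (none or 10 CPM), the trend, the replicate number as a block, the length correction and the libraries included. A subunit of the list is counted in the groups but not reported here by itself.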

Additional observations from a re-analysis of the deposited data

How the results depend on the processing

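With 2 libraries per genotype, small differences such as these cannot be told from the spread between libraries, and depth limits the low *Ndufaf5*. The count of called genes stayed at 0 under every alternative except the replicate block, which called 1 gene, *C130089K02Rik*, no member, named after its values were seen (limma, adjusted p = 0.0189), and the unadjusted threshold, with 742 genes. The block with length correction called 0. Replicate numbers were not taken as pairs, since the deviations of same-numbered libraries correlated at 0.06 over all tested genes, -0.0047 over the members and 0.14 over genes above 32 CPM, and the labels give no shared source for a number. Leaving out each library in turn, the subunit median ran from 0.034 to 0.25, that of the assembly factors from 0.082 to 0.19, and the difference of the medians, 0.04 with all libraries, from -0.11 to 0.095 (-0.11 without ID2KO replicate 1). Replicate number 1 alone gave 0.28 for subunits and 0.23 for assembly factors, and number 2 alone 0.025 for subunits and -0.094 for the difference. The length correction within coding genes of at least 16 CPM gave 0.029 for subunits and 0.0093 for assembly factors. Pseudocount, rescaling, filter and trend kept the direction of all 3 values, and the longest-transcript correction left a difference of -0.0017.

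Single genes near 0 changed sign. *Ndufaf4* was at -0.0053 under median-ratio rescaling. Under the length correction, with or without the block, *Ndufaf6* was at -0.049 and *Ndufaf8* at -0.016, and with longest transcripts *Ndufaf6* was at -0.049 and *Ndufaf8* at -0.015. Within coding genes of at least 16 CPM the correction gave -0.10 for *Ndufaf6*, -0.072 for *Ndufaf8*, -0.041 for *Ndufa3*, -0.033 for *Ndufa12*, -0.028 for *Ndufs8* and -0.025 for *Ndufv2*. Leaving out libraries gave ranges across 0, -0.13 to 0.088 for *Ndufa1*, -0.018 to 0.36 for *Ndufa4*, -0.19 to 0.061 for *Ndufaf3*, -0.11 to 0.12 for *Ndufaf4*, -0.15 to 0.17 for *Ndufaf6*, -0.14 to 0.27 for *Ndufaf8*, -0.035 to 0.15 for *Ndufs1*, -0.22 to 0.18 for *Ndufs5*, -0.046 to 0.24 for *Ndufs8*, -0.0096 to 0.18 for *Ndufv1* and -0.0028 to 0.092 for *Ndufv2*. The causes were not tested.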
